A study of Mus musculus with 4 samples.

Results

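Of the 17259 genes in the normalised count table, 10 belong to de novo lipogenesis, the route from citrate to fatty acids and triglycerides. They were taken by symbol: Acly, Me1, Acaca, Fasn, Scd1, Scd2, Elovl6, Dgat2, Acacb and Thrsp. All 10 were listed and all 10 passed the filter of a mean normalised count of at least 10, which left 8215 genes tested. RNA came from brown adipose tissue (BAT) of mice with genotype WT, in 2 libraries of isolated mitochondria (BAT-Mito) and 2 titled BAT-total. The treatment label of the BAT-total libraries says that mitochondria had been taken out, but the study also speaks of total lysates, and 51.1% and 59.3% of their normalised counts were transcripts of the mitochondrial genome. Whole tissue and tissue without mitochondria cannot be told apart for them here. No other allele or treatment is named for either group, and strain, age and sex are not given in the labels. The study describes for heart mitochondria a treatment with digitonin, a detergent that opens cholesterol-rich membranes, and with RNase A, which digests RNA outside intact organelles. Nothing says that the libraries came from separate animals or whether animals were pooled, so the p-values measure only the spread between these libraries.

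In de novo lipogenesis, citrate exported from mitochondria is split to acetyl-CoA in the cytosol, carboxylated to malonyl-CoA and condensed to palmitate with NADPH as the reductant. Palmitate is then elongated, desaturated and esterified by enzymes of the endoplasmic reticulum (ER), whose mRNAs are translated at the ER membrane, while mRNAs of the cytosolic enzymes are translated on free ribosomes. Brown fat makes fatty acids to refill the lipid droplets that supply heat production, and it raises this pathway in the cold and after feeding.

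The question for each gene was how much of its mRNA accompanied isolated mitochondria. The BAT-Mito libraries held 26288871 and 24910434 reads, of which only 49420 (0.188%) and 58238 (0.234%) fell on nuclear protein-coding genes. Transcripts of the mitochondrial genome took 95.3% and 95.5% of them, well above their shares in BAT-total. One read was worth 8.32 normalised units in BAT-Mito replicate 1 and 6.90 in replicate 2, so a low gene there rests on few reads. The normalised totals of BAT-total were 1590096 and 1905303, and the reads behind a unit are unknown. Of 14 brown adipocyte markers 13 were above 0 in every library (Prdm16 was at 0 in BAT-Mito replicate 2), with Ucp1, the uncoupling protein of heat production, at 1290 and 3554 in BAT-Mito and 4819 and 4185 in BAT-total.

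All 10 lipogenic mRNAs had a lower mean in isolated mitochondria than in BAT-total, with log2 fold changes from -2.81 to -1.18 and a median of -2.03. None of the 10 passed an adjusted p under 0.05 in limma, in either direction (0 were higher at an unadjusted p under 0.05). Most nuclear genes lay on the same side: the median over the 8215 genes was -1.23, so the lipogenic median lay 0.80 below it on the log2 scale. Relative to all genes it was -0.26 without BAT-Mito replicate 1 and -1.73 without BAT-Mito replicate 2. For 7 of the 10 genes both BAT-Mito libraries lay below both BAT-total libraries, which 52.1% of all genes tested did. At an unadjusted p under 0.05, limma called 3 of the 10 lower (Acacb, Elovl6 and Dgat2), against 14.9% of all genes. With adjustment it called 4.41% of all genes lower and 0.803% higher. Of the 362 genes called lower, 359 had 0 reads in both BAT-Mito libraries, whereas each lipogenic gene had at least 1 read in both. Among the 1307 nuclear genes with a mean at least as high as the lowest lipogenic gene, 84.8 normalised counts, limma called 1 lower, and their median was -0.96. The values compare fractions of tissue, so a lower mean is not a measure of expression per cell. It also cannot tell fewer cells of a type from less of their RNA in the fraction.

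On reads, with the BAT-total values used as if they were reads, edgeR's quasi-likelihood test called 1 lipogenic gene lower (Acacb), against 2.5% of all genes. DESeq2 called 3 lower (Acacb, Elovl6 and Dgat2), against 3.66% of all genes, and neither tool called any of the 10 higher. Scaled to all reads, mitochondrial transcripts included (CPM over all genes), limma called all 10 lower, as it did 7963 of the 8215 genes.

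**Figure D1:**
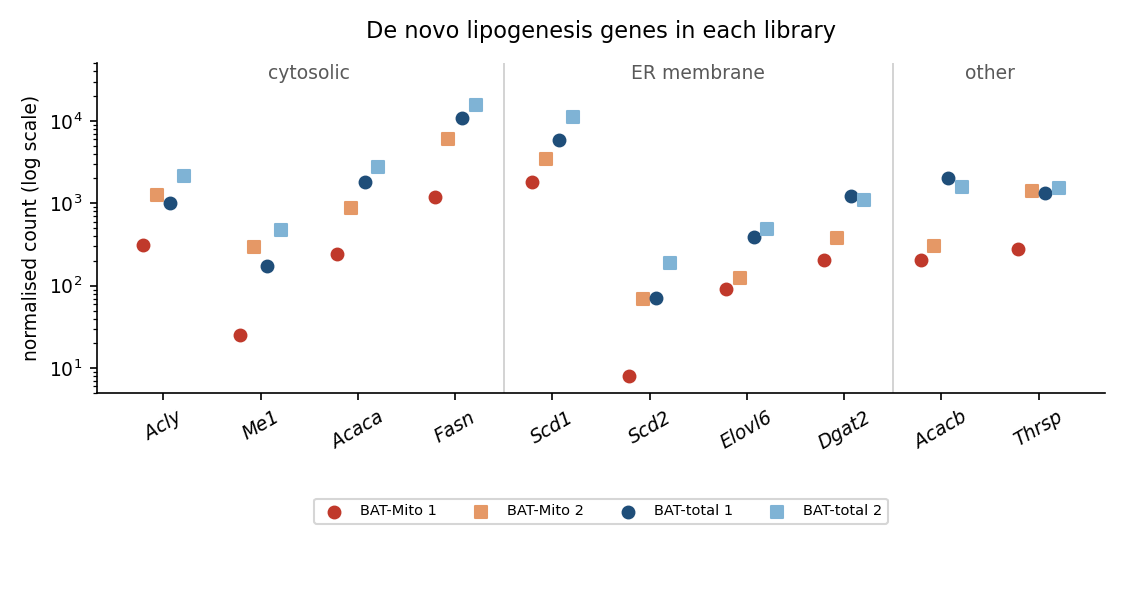
Normalised count (log axis) of each of the 10 lipogenic genes in the 4 libraries, 1 point per library, with cytosolic enzymes on the left, ER-membrane enzymes in the middle and Acacb and Thrsp on the right. For every gene BAT-Mito replicate 1 (red circles) is the lowest of the 4 libraries, and for Acly, Me1 and Thrsp BAT-Mito replicate 2 lies within the BAT-total range.

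Coordinates below are those of the deposited table, on mouse build GRCm38 (mm10), from the start to the end of the gene. Acly (ATP citrate lyase, ENSMUSG00000020917, chromosome 11, 100476353 to 100528000, minus strand) splits cytosolic citrate and gives the pathway its acetyl-CoA. Its normalised count was 308 and 1270 in BAT-Mito replicates 1 and 2, from 37 and 184 reads, and 1007 and 2118 in BAT-total. The groups overlapped, since BAT-Mito replicate 2 lay above BAT-total replicate 1. The log2 fold change was -1.22 (SE 0.97, limma adjusted p = 0.486), about the median of all genes with all 4 libraries. It was -0.2 without BAT-Mito replicate 1 (median of all genes -0.92) and -2.24 without BAT-Mito replicate 2 (median -1.05). Me1 (cytosolic malic enzyme, ENSMUSG00000032418, chromosome 9, 86581371 to 86695953, minus strand) makes NADPH. It had 25 and 297 normalised counts in BAT-Mito, from 3 and 43 reads, and 174 and 470 in BAT-total. These groups overlapped too, with a log2 fold change of -1.71 (SE 1.51, limma adjusted p = 0.521) that was 0.05 once BAT-Mito replicate 1 was left out.

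The enzymes that build the chain, Acaca and Fasn, were lower in both BAT-Mito libraries than in both others, as were 52.1% of all genes tested. Acaca (acetyl-CoA carboxylase 1, ENSMUSG00000020532, chromosome 11, 84129672 to 84401651, plus strand) makes the cytosolic malonyl-CoA used for synthesis. Its normalised count was 241 and 883 in BAT-Mito, from 29 and 128 reads, and 1812 and 2748 in BAT-total. Both BAT-Mito values lay below both others, and the log2 fold change was -2.27 (SE 0.86, limma adjusted p = 0.293). It was -1.34 without BAT-Mito replicate 1 and -3.21 without BAT-Mito replicate 2. Fasn (fatty acid synthase, ENSMUSG00000025153, chromosome 11, 120805846 to 120824547, minus strand) condenses malonyl-CoA to palmitate. It had 1207 and 5949 normalised counts in BAT-Mito, from 145 and 862 reads, and 10901 and 15587 in BAT-total. The log2 fold change was -2.28 (SE 0.99, limma adjusted p = 0.318), and the BAT-Mito libraries differed from each other by 4.93 times. Without BAT-Mito replicate 1 the log2 fold change was -1.13, and without BAT-Mito replicate 2 it was -3.43. As a share of nuclear protein-coding reads, Fasn took 0.293% (95% Wilson interval 0.249 to 0.345%) in BAT-Mito replicate 1 and 1.48% (1.39 to 1.58%) in replicate 2. Their gap was far wider than counting error, which is all that these intervals cover.

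Of the ER-membrane enzymes, Scd1 (stearoyl-CoA desaturase 1, ENSMUSG00000037071, chromosome 19, 44394455 to 44407879, minus strand) puts the double bond into oleate and palmitoleate. Its normalised count was 1789 and 3451 in BAT-Mito, from 215 and 500 reads, and 5826 and 11082 in BAT-total. The groups did not overlap, and the log2 fold change was -1.69 (SE 0.65, limma adjusted p = 0.297). The related desaturase Scd2 (ENSMUSG00000025203, chromosome 19, 44293674 to 44306864, plus strand) had 8 and 69 in BAT-Mito, from only 1 and 10 reads, and 72 and 190 in BAT-total. BAT-Mito replicate 2 was thus just under BAT-total replicate 1, and the log2 fold change of -2.23 (SE 1.32, limma adjusted p = 0.396) rests on those few reads. It was -0.75 without BAT-Mito replicate 1 and -3.71 without BAT-Mito replicate 2.

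Elovl6 (ENSMUSG00000041220, chromosome 3, 129532355 to 129638495, plus strand) elongates palmitate to stearate. It had 92 and 124 normalised counts in BAT-Mito, from 11 and 18 reads, and 386 and 494 in BAT-total. Replicates lay close together here, and the log2 fold change was -2.02 (SE 0.46), with adjusted p = 0.187 in limma, 0.0576 in edgeR and 0.00596 in DESeq2. Dgat2 (ENSMUSG00000030747, chromosome 7, 99153658 to 99182719, minus strand) adds the last acyl chain of a triglyceride. It had 208 and 380 normalised counts in BAT-Mito, from 25 and 55 reads, and 1215 and 1106 in BAT-total. The groups stood well apart, and the log2 fold change was -2.04 (SE 0.53), with adjusted p = 0.219 in limma, 0.0553 in edgeR and 0.00916 in DESeq2.

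Acacb (acetyl-CoA carboxylase 2, ENSMUSG00000042010, chromosome 5, 114146535 to 114250761, plus strand) sits at the outer mitochondrial membrane, where its malonyl-CoA restrains the entry of fatty acids for oxidation. The normalised count was 208 and 304 in BAT-Mito, from 25 and 44 reads, and 2006 and 1566 in BAT-total. The means were 256 ± 67.9 and 1786 ± 311 (SD, n = 2 each), with no overlap. The log2 fold change was -2.81 (SE 0.48), with adjusted p = 0.111 in limma, 0.0206 in edgeR and 1.27e-06 in DESeq2. It was the lowest of the 10 with all 4 libraries, and -3.08 to -2.54 with any 1 library left out. Without BAT-Mito replicate 2, Scd2 (-3.71), Me1 (-3.46), Fasn (-3.43) and Acaca (-3.21) lay below it, and without BAT-total replicate 1 Scd2 (-2.93) did.

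Thrsp (Spot 14, ENSMUSG00000035686, chromosome 7, 97412938 to 97417730, minus strand) encodes a small nuclear and cytosolic protein that promotes lipogenesis and responds to thyroid hormone. Its normalised count was 283 and 1401 in BAT-Mito, from 34 and 203 reads, and 1340 and 1517 in BAT-total. BAT-Mito replicate 2 lay inside the BAT-total range while replicate 1 lay far below it, and the log2 fold change was -1.18 (SE 0.98, limma adjusted p = 0.499). Without BAT-Mito replicate 1 it was -0.03. With all 4 libraries, Thrsp and Acly were the members nearest to the median of all genes, at 0.05 above and 0.01 above it. That did not hold with either BAT-Mito library or BAT-total replicate 2 left out. Without BAT-Mito replicate 1, Scd2 (-0.75) lay nearer to the median of that fit (-0.92) than Acly (-0.2) or Thrsp (-0.03).

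**Figure D2:**
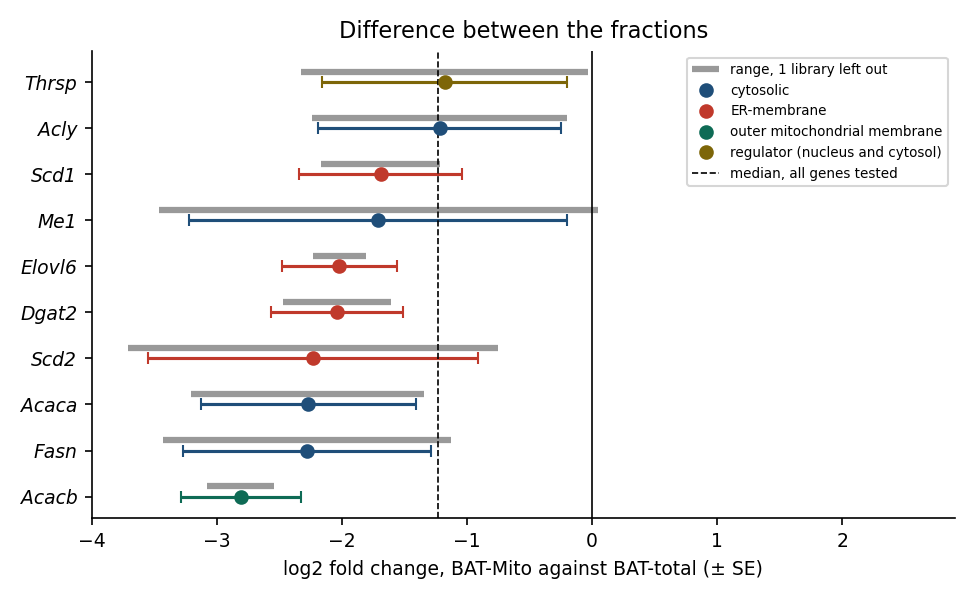
Log2 fold change (BAT-Mito minus BAT-total, on log2 of the normalised count plus 1) of each lipogenic gene with its limma standard error (thin bar) and its range with 1 library left out (grey bar), beside the median of all 8215 genes tested at -1.23. All 10 points lie below 0, from -2.81 for Acacb to -1.18 for Thrsp, and none passed the adjusted threshold in limma.

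Leaving out a BAT-Mito library changed the calls. Without BAT-Mito replicate 2 limma called 6 of the 10 lower (Acaca, Fasn, Elovl6, Dgat2, Acacb and Thrsp), and without BAT-Mito replicate 1 it called 3 (Elovl6, Dgat2 and Acacb). These fits leave 1 library in BAT-Mito, which is taken to vary like the other group, and they called 3864 and 3374 of all 8215 genes lower. With either BAT-total library left out, limma called 0 of the 10 and 0 of all 8215 genes, so those fits say nothing about the lipogenic genes. Elovl6, Dgat2 and Acacb were called in both of the former fits.

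Levels can be set against each other only per length. In normalised counts per kilobase of annotated exon, as means of the BAT-total libraries, the order was Scd1 (1728), Fasn (1209.8), Thrsp (653), Dgat2 (376), Acly (296), Acacb (185), Acaca (134), Me1 (83.7), Elovl6 (68.4) and Scd2 (24.0). The libraries overlapped for the neighbours Scd1 and Fasn, Dgat2 and Acly, Acly and Acacb, Acaca and Me1, and Me1 and Elovl6, so their order did not exceed the spread. Together the 10 genes took 3.84% and 5.82% of the nuclear protein-coding total in BAT-total and 1.06% and 3.51% in BAT-Mito. The mean was 4.83% ± 1.40 in BAT-total and 2.28% ± 1.73 in BAT-Mito (SD, n = 2 each), and BAT-Mito minus BAT-total was -2.55 percentage points beside SDs of the same order. With 2 libraries a group, an exact two-sided permutation test cannot give a p below 0.333, so none was used for these sums.

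Some counts are uncertain because the authors left out reads with several positions. Of the distinct stretches of 75 bases (the read length) in protein-coding transcripts of Acaca, 44.2% also occur in transcripts of Gm5182, a processed pseudogene that was listed at 58 and 173 in BAT-Mito and 348 and 607 in BAT-total. For Me1 17.6% are shared, with the processed pseudogenes Gm7049 and Gm7329. The share was 3.2% for Scd1, 2.05% for Elovl6 and 1.8% for Scd2, and 0 for Acly, Fasn, Dgat2, Acacb and Thrsp.

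ER-membrane and cytosolic enzymes were then compared within each library. The ER-membrane set (Scd1, Scd2, Elovl6 and Dgat2) and the cytosolic set (Acly, Me1, Acaca and Fasn) had similar medians of the log2 fold change, -2.03 (range -2.23 to -1.69) and -1.99 (range -2.28 to -1.22). The mean log2 level of the ER set minus that of the cytosolic set was -0.73 and -1.86 in BAT-Mito, and -1.03 and -1.30 in BAT-total. The BAT-Mito libraries thus enclosed the others from both sides, and the group means, -1.29 ± 0.801 and -1.17 ± 0.191 (SD, n = 2 each), differed by less than the spread. The difference of -0.13 was 0.44 without BAT-Mito replicate 2 and 0.01 without BAT-total replicate 1. With a pseudocount of 10 it was -0.04, and with CPM over all genes it was 0.00 to the same precision.

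In reads, the ER-membrane enzymes took 252 of 466 in BAT-Mito replicate 1, or 54.1% (95% exact binomial interval 49.4 to 58.7%), and 583 of 1800 in replicate 2, or 32.4% (30.2 to 34.6%). In BAT-total they took 35.1% and 38.1% of the normalised counts. BAT-Mito replicate 1 was the highest of the 4 libraries and BAT-Mito replicate 2 the lowest, so the fractions overlapped. The means were 43.2% ± 15.3 and 36.6% ± 2.15 (SD, n = 2 each), 6.66 percentage points apart. The difference was -4.18 points without BAT-Mito replicate 1 and -0.751 points without Fasn. These sums are mostly Scd1 and Fasn, and the ratio of Scd1 to Fasn was 1.48 and 0.58 in BAT-Mito and 0.534 and 0.711 in BAT-total. Without Scd1 the ER share was 14.7% and 6.39% in BAT-Mito and 10.7% and 7.88% in the other fraction.

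**Figure D3:**
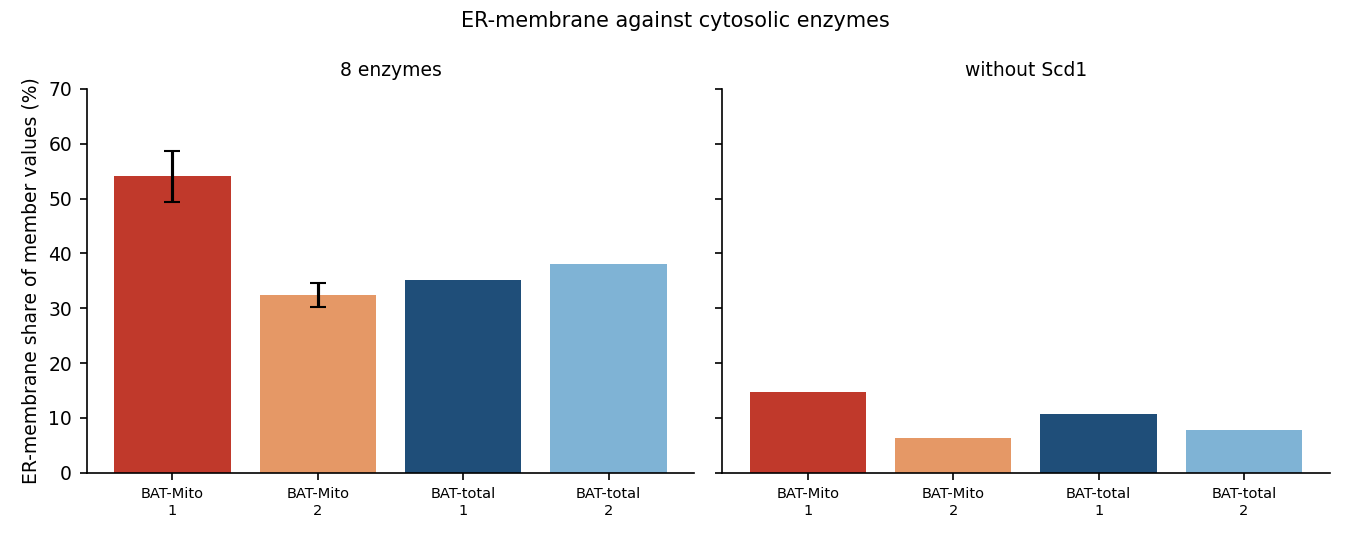
Sum of the 4 ER-membrane enzymes as a percent of the 8 ER-membrane and cytosolic enzymes, 1 bar per library, on the left with all 8 and on the right without Scd1. Error bars are 95% exact binomial intervals of counting error in the BAT-Mito libraries, where reads were recovered. BAT-Mito replicate 1 is highest (54.1%) and replicate 2 lowest (32.4%) on the left.

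Replicate 2 held more of most lipogenic mRNAs than replicate 1, in each fraction. In BAT-Mito all 10 were higher in replicate 2 than in replicate 1, with a median difference of 1.95 on the log2 scale, and in BAT-total 8 of 10 were, with a median of 0.56. The exceptions were Acacb (2006 and 1566) and Dgat2 (1215 and 1106). For 8 genes (80.0%) replicate 2 was higher in both fractions, against 21.0% of all genes tested. Of the 14 brown adipocyte markers, 12 were also higher in BAT-Mito replicate 2 (median 1.19), 2 were higher in BAT-total replicate 2 (median -0.20), and 0 in both. The shared numbers pair nothing by the labels, and members of a pathway are no independent replicates, so no test was made. The ratio of replicate 2 to 1 in BAT-Mito was 4.95 for Thrsp, 4.93 for Fasn, 4.12 for Acly and 3.66 for Acaca, against 1.93 for Scd1, 1.83 for Dgat2, 1.46 for Acacb and 1.35 for Elovl6. Me1 (3 and 43 reads) and the ER-membrane enzyme Scd2 (1 and 10 reads) were also higher in replicate 2 but had too few reads for a ratio, so no order of cytosolic and ER-membrane enzymes was drawn from these.

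**Figure D4:**
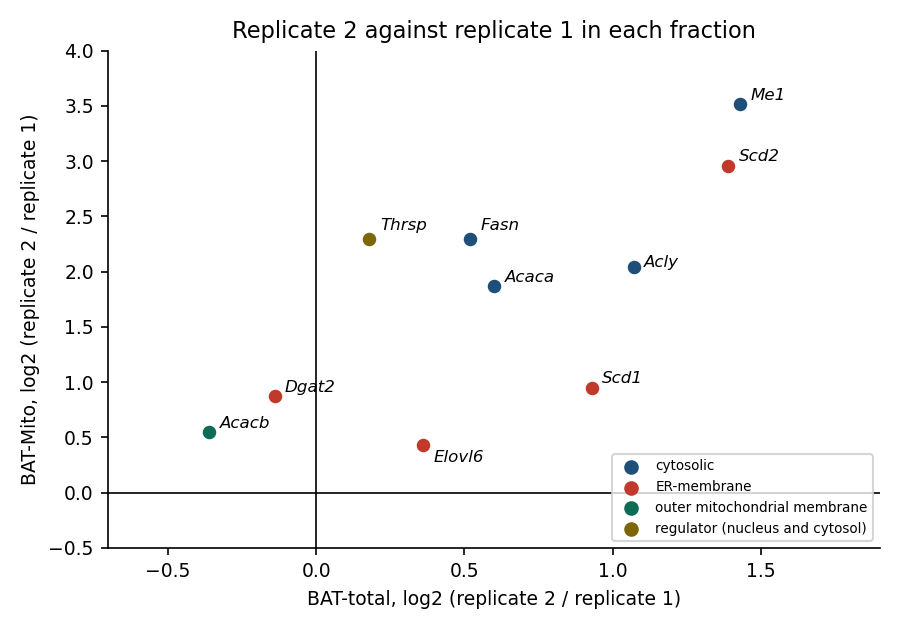
Log2 ratio of replicate 2 to replicate 1 (normalised count plus 1) for each lipogenic gene, in BAT-total (x axis) and in BAT-Mito (y axis), coloured by the place of the enzyme. All 10 genes lie above 0 on the y axis and 8 lie right of 0 on the x axis; Me1 and Scd2 rest on 3 and 1 reads in BAT-Mito replicate 1.

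The promoter of Fasn is shown because Fasn makes the palmitate of the pathway and its mRNA differed widely between the BAT-Mito libraries. Whether the promoter bears on that difference was not tested. RefSeq (GRCm38.p6) gave 8 promoters for 7 of the 10 genes (all but Scd1, Scd2 and Dgat2), and the 250 bases before RefSeq's start were searched on both strands for the sterol regulatory element TCACNCCAC, the E-box CACGTG and the CCAAT box. CCAAT occurred in 4 of the 8, those of Fasn, Thrsp, Acacb and 1 of the 2 for Me1, against 33.85% of 32851 RefSeq promoters. The sterol regulatory element (1.05% of all promoters) and the E-box (6.02%) occurred in 0 of the 8. A match is a description of the letters and not a bound site. RefSeq's start differs from the start of the gene in the deposited coordinates for 6 of the 8 windows, which overlap the gene there (Thrsp by 180 of 250 bases, including both of its CCAAT matches, and Acaca, Acacb and 1 of the Me1 windows by all 250). Only the windows of Fasn and Acly lie wholly before it. The Fasn promoter (chr11:120824548-120824797, minus strand) holds 3 matches, beginning 90, 62 and 59 bases before the start, the last pair overlapping on opposite strands. It is written 5′ to 3′ on the strand of the gene, with CCAAT or its reverse complement in capitals:
Fasn: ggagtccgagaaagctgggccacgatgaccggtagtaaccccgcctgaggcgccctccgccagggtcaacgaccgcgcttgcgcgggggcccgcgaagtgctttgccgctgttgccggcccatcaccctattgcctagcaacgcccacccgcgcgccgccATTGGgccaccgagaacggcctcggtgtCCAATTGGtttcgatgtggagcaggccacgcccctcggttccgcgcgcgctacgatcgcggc

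The rest of the pathway was followed in lists of 64 genes, of which 63 were listed and 52 tested. Limma called 1 of the 52 lower and 0 higher, 10 were lower and 0 higher at an unadjusted p under 0.05, and the median log2 fold change was -1.19, or 0.03 above that of all genes. EdgeR called 5 and DESeq2 7 lower, and neither called any higher. Among 12 regulators of lipogenic transcription tested (median -1.15), 0 were called by limma, 1 was lower at an unadjusted p under 0.05, and edgeR and DESeq2 called 1 each, Srebf1. Srebf1, which encodes the sterol-regulated activator of most of the 10 genes, had 42 and 28 normalised counts in BAT-Mito, from 5 and 4 reads, and 273 and 219 in BAT-total. Its log2 fold change was -2.80 (SE 0.48), with adjusted p = 0.112 in limma, 0.0333 in edgeR and 0.00197 in DESeq2, close to the value of Acacb. Mlxipl, the carbohydrate-response factor ChREBP, had 233 and 62 against 366 and 391. Mbtps1, the protease that begins the release of SREBP from its membrane, had 75 and 28 against 104 and 114.

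Enzymes that supply citrate, acetyl-CoA, glucose and NADPH had a median log2 fold change of -1.19 over 10 genes tested. Limma called 0 (4.41% of all genes lower), with 1 lower at an unadjusted p under 0.05 (14.9%), and edgeR (2.5%) and DESeq2 (3.66%) called 1 each. That gene was Slc2a4, the insulin-responsive glucose transporter GLUT4, with 33 and 35 normalised counts in BAT-Mito, from 4 and 5 reads, and 253 and 198 in BAT-total. Its log2 fold change was -2.68 (SE 0.43), with adjusted p = 0.0958 in limma, 0.0335 in edgeR and 0.00351 in DESeq2. Tkt, the transketolase of the pentose phosphate pathway, had 325 and 725 normalised counts in BAT-Mito and 1487 and 1799 in BAT-total, a log2 fold change of -1.75 (limma adjusted p = 0.282). Mdh1, the cytosolic malate dehydrogenase, had 92 and 269 against 359 and 356, and Taldo1, the transaldolase, 141 and 352 against 489 and 410. For Tkt, Mdh1 and Taldo1, as for Fasn and Acly, BAT-Mito replicate 2 was the higher of the BAT-Mito libraries, but not for every gene of the list. In summed normalised counts it was also the higher for mitochondrial fatty acid synthesis (183 and 553). It was the lower for the regulators (658 and 367), the elongation and desaturation enzymes (732 and 442) and the triglyceride enzymes (1847 and 1458).

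The 13 other triglyceride enzymes tested had a median log2 fold change of -1.90. Limma called 0 (4.41% of all genes lower), with 5 lower at an unadjusted p under 0.05 (14.9%). EdgeR called 2 lower (2.5% of all genes) and DESeq2 4 (3.66%). Acsl1, which activates fatty acids at the outer mitochondrial and ER membranes, had 541 and 421 normalised counts in BAT-Mito and 2510 and 2264 in BAT-total. Its log2 fold change was -2.32 (SE 0.43), with adjusted p = 0.138 in limma, 0.031 in edgeR and 4.91e-07 in DESeq2. Agpat2, an ER acyltransferase that makes phosphatidic acid, had 117 and 152 against 754 and 834, a log2 fold change of -2.56 (SE 0.43, adjusted p = 0.111 in limma, 0.031 in edgeR and 3.7e-06 in DESeq2). Gpam, the glycerol-phosphate acyltransferase of the outer mitochondrial membrane, had 241 and 131 against 688 and 591, with a log2 fold change of -1.84 (adjusted p = 0.245 in limma, 0.0734 in edgeR and 0.028 in DESeq2). Lpin1, the phosphatase that makes diacylglycerol, had 108 and 166 against 464 and 541, with a log2 fold change of -1.90 (adjusted p = 0.212 in limma, 0.0661 in edgeR and 0.00907 in DESeq2). Neither Acacb nor Gpam, both encoding proteins of the outer mitochondrial membrane, thus had its higher level in the BAT-Mito libraries. Both BAT-Mito libraries also lay below both others for 52.1% of all genes tested. Where these mRNAs lie in the cell was not tested.

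Other elongation and desaturation enzymes had a median log2 fold change of -0.99 over 12 genes tested, or -0.54 with genes without BAT-Mito reads set to their bound of 3 reads. The 1 gene called by limma was the desaturase-like Fads3, with 0 reads in both BAT-Mito libraries and 16 and 33 normalised counts in the others. Against the floor of 3 reads, 22.8 units on average, it was at least 1.07-fold lower, and neither edgeR (adjusted p = 0.146) nor DESeq2 (adjusted p = 0.139) called it. Hsd17b12, the ketoacyl-CoA reductase of the elongation cycle, had 17 and 55 normalised counts in BAT-Mito, from 2 and 8 reads, and 218 and 217 in BAT-total. Its log2 fold change was -2.78 (SE 0.75), with adjusted p = 0.228 in limma, 0.047 in edgeR and 0.018 in DESeq2, and it was the 1 gene of this list that edgeR and DESeq2 called. At an unadjusted p under 0.05 limma had 3 of the 12 lower, against 14.9% of all genes. Of the electron carriers that serve the desaturases, Cyb5r3 had 166 and 138 against 66 and 66, a log2 fold change of 1.19 (SE 0.42, limma adjusted p = 0.283). Cyb5a had 133 and 76 against 66 and 96, which overlap, with a log2 fold change of 0.33 (SE 0.55, limma adjusted p = 0.702) that ranged from -0.07 to 0.73 with 1 library left out. Mitochondria also make fatty acids of their own, as the precursor of lipoic acid, and of that pathway 5 genes were tested, with a median of -0.69. Limma, edgeR and DESeq2 called 0 of these, with 0 at an unadjusted p under 0.05. Ndufab1, its acyl carrier protein, had 108 and 290 normalised counts against 233 and 258, while Mecr had 17 and 152 against 101 and 69 and Acsf3 17 and 76 against 87 and 71.

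Markers of other cell types had unequal summed shares in the libraries. Liver, which also makes fatty acids, was represented by 17 markers that took 4.75% and 0.478% of the nuclear protein-coding total in BAT-Mito, and 0.101% and 0.0471% in BAT-total. For 16 of the 17 both BAT-Mito libraries were higher, as for 8.59% of all genes tested. Limma called 0, with 7 higher at an unadjusted p under 0.05 (3.2% of all genes), edgeR called 11 (2.17% of all genes) and DESeq2 11 (2.35%), and 8 were at 0 in BAT-total replicate 2. Alb was at 4943 and 393 normalised counts in BAT-Mito against 97 and 3, and Trf at 2621 and 359 against 113 and 88. The 10 skeletal muscle markers took 0.929% and 0.308% in BAT-Mito against 0.0545% and 0.121%, and the 8 macrophage markers 0.116% and 0.0958% against 0.0161% and 0.016%. Myh4 was at 1947 and 518 normalised counts in BAT-Mito against 144 and 311, Myh1 at 391 and 166 against 28 and 58, Csf1r at 133 and 41 against 15 and 13, and Mrc1 at 100 and 124 against 21 and 17. Of the muscle markers limma called 0, with 3 of 10 higher at an unadjusted p under 0.05, and edgeR and DESeq2 called 2 each. Of the 7 macrophage markers tested limma called 0, with 2 higher at an unadjusted p under 0.05, edgeR called 1 and DESeq2 2. The 8 endothelial markers took 0.0243% and 0.00869% in BAT-Mito, with 3 and 6 of them at 0, against 0.178% and 0.193%, and Cdh5 had 42 and 0 normalised counts against 257 and 236 and Kdr 25 and 7 against 335 and 383. Of the 8, limma called 2 lower (Egfl7 and Emcn, both with 0 BAT-Mito reads), against 4.41% of all genes. At an unadjusted p under 0.05 it had 5 lower (14.9% of all genes). EdgeR called 6 lower (2.5%) and DESeq2 4 (3.66%). BAT-Mito replicate 1, the lowest library for every lipogenic gene, was thus the highest for the summed liver and muscle markers, though not for each marker. The part of these cells in the lipogenic values was not tested.

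The 14 brown adipocyte markers had a median log2 fold change of -1.77. Limma called 0 (4.41% of all genes lower), with 5 lower at an unadjusted p under 0.05 (14.9%). EdgeR called 2 lower (2.5% of all genes) and DESeq2 4 (3.66%). They took 1.20% and 2.93% in BAT-Mito against 3.55% and 3.13%. Fabp4, the fatty acid binding protein of adipocytes, had 957 and 2823 normalised counts against 5208 and 4746, a log2 fold change of -1.60 (limma adjusted p = 0.325). The median log2 level of the lipogenic genes minus that of the adipocyte markers was 0.26 and 0.48 in BAT-Mito and 0.41 and 0.88 in BAT-total. Those values overlapped, and their group means of 0.37 ± 0.156 and 0.645 ± 0.332 (SD, n = 2 each) differed by less than the larger SD.

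**Figure D5:**
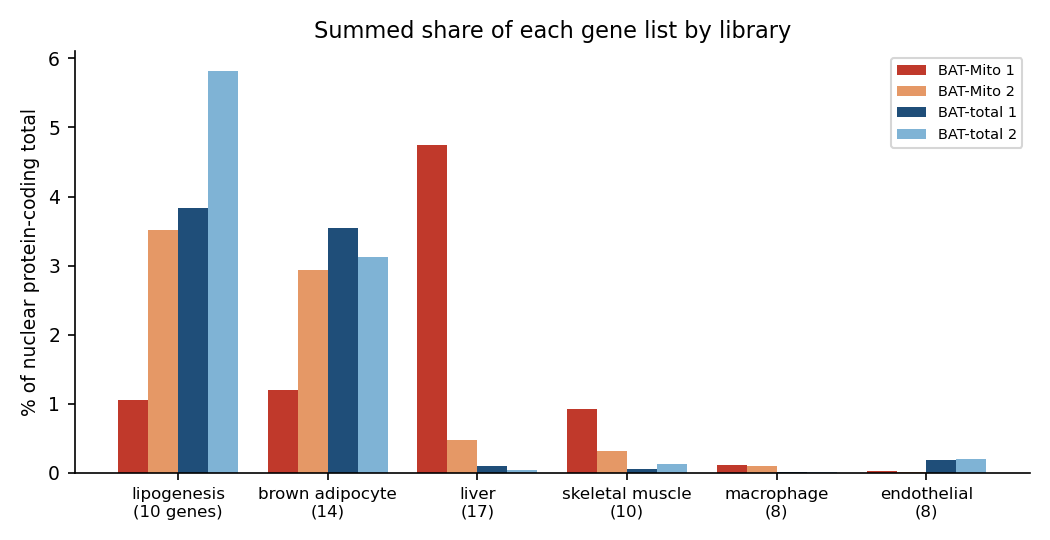
Summed share of the nuclear protein-coding total taken by the lipogenic genes and by 5 lists of cell type markers, 1 bar per library. The lipogenic genes run from 1.06% in BAT-Mito replicate 1 to 5.82% in BAT-total replicate 2, and the liver markers from 4.75% in BAT-Mito replicate 1 to 0.0471% in BAT-total replicate 2.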

How the data were processed

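The authors isolated total RNA, prepared stranded total RNA libraries and, per the labels' processing notes, used Trimmomatic 0.39, STAR 2.7.10a, featureCounts 2.0.2 and DESeq2 1.30.1 on build mm10. Reads with several positions or genes were not counted. For mitochondrial RNA the fragmentation time was adapted, so library preparation cannot be told apart from the fraction. The deposited signal holds gene counts that the authors scaled by size factors and rounded, called normalised counts here. In BAT-Mito whole reads were recovered for 100.0% of values. In the other libraries they were not.

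Log2 of the normalised count plus 1 was compared between 2 and 2 libraries with limma 3.58.1 (R 4.3.3, no trend), over the 8215 genes with a mean of at least 10, with Benjamini-Hochberg adjustment over all of them. Fold changes are on this scale, where genes with few BAT-Mito reads can differ from the fit on reads (Scd2 at -2.23 in limma and -1.68 in edgeR). EdgeR 4.0.16 and DESeq2 1.42.0 on reads, 4 other scalings, other filters, a pseudocount of 10, the replicate number as a block and leaving out each library were alternatives. Fold changes were recovered on simulated data, where limma missed most of the changed genes. Named genes were the 10 members, each gene called by limma and the 3 highest of each pathway list, and the 2 highest of each marker list. Egfl7, Emcn, Slc2a4, Lpin1 and Prdm16 were named after their values were seen. Members and lists were chosen with earlier results of these data known. Gene coordinates matched GENCODE M21 for 99.1% of listed genes, from which exon lengths were taken.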

Additional observations from a re-analysis of the deposited data

How the results depend on the processing

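Under the pseudocount, filter, trend and replicate block alternatives, and in edgeR and DESeq2, all 10 lipogenic genes kept a negative log2 fold change. The exception among all alternatives was Me1, at 0.05 without BAT-Mito replicate 1 and -3.46 without replicate 2. The number of the 10 called lower was 0 in limma, 2 with all genes with any count (3587 of 17259 genes were), 2 with a trend (452 of 8215), 1 in edgeR, 3 in DESeq2 and 10 with CPM over all genes, and 0 to 6 with 1 library left out. CPM over all genes moved the median of the 10 to -8.59, with that of all genes at -7.15, since mitochondrial transcripts fill those totals. Other scalings put the all-gene median at -0.94 (TMM), -0.62 (median ratios over nuclear genes) and -0.63 (CPM over nuclear protein-coding genes), and the median of the 10 at -1.73, -1.38 and -1.38, with Acly at -0.92, -0.57 and -0.57 and Thrsp at -0.87, -0.52 and -0.53. With 1 library left out, the median of the 10 ranged from -2.78 to -1.18, and relative to all genes from -1.73 to -0.26. The difference between ER-membrane and cytosolic enzymes ranged from -0.69 to 0.44, being 0.44 without BAT-Mito replicate 2 and 0.01 without BAT-total replicate 1. That in ER share ranged from -4.18 to 17.5 points, and was -0.751 without Fasn. Of the 52 pathway genes, 1 was called lower in limma, 0 with a pseudocount of 10, a mean of at least 50, TMM, median ratios, CPM over nuclear protein-coding genes or the replicate block, 7 with all genes, 52 with CPM over all genes, 5 with a trend, 5 in edgeR, 7 in DESeq2 and 0 to 27 with 1 library left out. Called higher were 0, 1 with all genes and 0 to 4 with 1 library left out. With all genes with any count, more genes were tested in those lists. The fit with the replicate number as a block leaves 1 residual degree of freedom and called 0 of the 10 and 0 of all 8215 genes, with 707 lower at an unadjusted p under 0.05. Deviations of same-numbered libraries correlated at r = 0.112 across genes, which are no independent replicates, and the labels state no pairing. Depth limits the low genes in BAT-Mito, where Scd2 rests on 1 and 10 reads and Me1 on 3 and 43.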
